A study of Mus musculus with 288 samples.

Results

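The aldehyde dehydrogenases described here are 10 genes, Aldh1a1, Aldh1a2, Aldh1a3, Aldh1a7, Aldh1b1, Aldh1l1, Aldh2, Aldh3a1, Aldh3a2 and Aldh6a1, of 35904 genes measured. They were listed by name, and they were chosen on the measured lung values, in which Aldh1a1 was lower after intermittent hypoxia (IH). The lung difference between treatments is therefore given as a description, with no p-value printed. All 10 were found in the table of every tissue.

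RNA of lung, liver, kidney, muscle, heart and cerebellum was sequenced from wild type male C57BL/6J mice, 8 weeks of age. The mice spent 7 days in normoxia or in IH, in which oxygen cycled between 21% and 8% during the light phase only. All of them then went into constant darkness in normoxia, and tissues were taken on the second day, every 3 hours, from 3 mice per time point and treatment. This gave 24 libraries per tissue and treatment, and each IH library was made after the mouse had returned to normal oxygen.

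Aldehyde dehydrogenases oxidise aldehydes to carboxylic acids with NAD or NADP. Aldh1a1, Aldh1a2 and Aldh1a3 make retinoic acid from retinal, and Aldh1a7 is the rodent copy of Aldh1a1, with little activity on retinal. Aldh2 clears acetaldehyde in mitochondria, where Aldh1b1 and Aldh6a1 also work, the latter on semialdehydes from valine and thymine. Aldh1l1 releases carbon dioxide from formyl-tetrahydrofolate, Aldh3a1 handles aromatic and lipid aldehydes in epithelia, and Aldh3a2 oxidises fatty aldehydes in the endoplasmic reticulum. The liver is the main site of acetaldehyde clearance, and airway club cells are known for high Aldh1a1 and Aldh3a1.

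Aldh1a1 lies on chromosome 19 from 20492715 to 20643465 on the plus strand (GRCm38, GENCODE release 21), and its copy Aldh1a7 lies on the same chromosome from 20692953 to 20727562 on the minus strand. Their coding sequences both run for 1503 bases and differ at 126 of them, which leaves 91.6% identical. The pair is shown because its levels rest on reads that must be told apart. In the 60-base window with the most differences, bases 319 to 378 of the coding sequence (counted from the first base of the start codon), 16 bases differ and stand in capitals:
Aldh1a1: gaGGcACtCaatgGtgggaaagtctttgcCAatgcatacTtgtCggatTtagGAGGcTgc
Aldh1a7: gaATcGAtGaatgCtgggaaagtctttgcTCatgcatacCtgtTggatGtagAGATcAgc
The longest run without a difference was 100 bases. Counting every stretch of 31 bases in the annotated transcripts, 5.70% of those of Aldh1a1 and 13.8% of those of Aldh1a7 occur in the other gene, so a part of their reads cannot be assigned by sequence alone and both levels carry that uncertainty. The largest share with another gene was 17.4%, for Aldh6a1, nearly all of it (993 of 1009 stretches) with Bbof1. Aldh1l1 shared 11.4%, mostly with Gm15756, while Aldh1a2, Aldh1b1, Aldh3a1 and Aldh3a2 shared none.

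The promoters of Aldh1a1 and Aldh1a7 are copies as well. RefSeq (GRCm38.p6) gives 9 start sites for 7 of the 10 genes, and the 120 bases before the start are shown for 4 genes that moved in the liver or lung, with matches to the searched motifs in capitals.
Aldh1a1, chr19:20601848-20601967, plus strand: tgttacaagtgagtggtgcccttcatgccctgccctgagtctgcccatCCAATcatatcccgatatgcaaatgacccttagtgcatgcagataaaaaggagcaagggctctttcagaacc
Aldh1a7, chr19:20727557-20727676, minus strand: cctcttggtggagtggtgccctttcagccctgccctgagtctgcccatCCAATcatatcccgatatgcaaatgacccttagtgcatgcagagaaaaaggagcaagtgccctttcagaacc
Aldh1a2, chr9:71215669-71215788, plus strand: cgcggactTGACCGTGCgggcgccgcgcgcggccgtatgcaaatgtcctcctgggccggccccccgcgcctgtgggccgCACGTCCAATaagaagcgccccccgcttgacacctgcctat
Aldh3a2, chr11:61267187-61267306, minus strand: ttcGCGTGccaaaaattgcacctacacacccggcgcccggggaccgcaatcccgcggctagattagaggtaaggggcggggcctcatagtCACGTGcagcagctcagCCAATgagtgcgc
Of these 120 bases, 105 (87.5%) were identical between Aldh1a1 and Aldh1a7, and the same CCAAT begins 72 bases before both starts. A further Aldh1a1 start in RefSeq, at 20492583, lies upstream of this one. Motifs were searched on both strands in the 250 bases before each start. CACGTG, the E-box of the clock factors, was found in 1 of the 9 windows, that of Aldh3a2, and in 6.02% of 32851 promoters. The core ACGTG, which HIF sites contain and which lies within CACGTG, was found in 2 of 9 (Aldh1a2 and Aldh3a2), against 16.6% of all promoters. GCGTG was in 2 of 9 (28.2% of all), TGACNNNGC, the core of antioxidant elements, in 1 of 9 (10.2%), TATAAA in 1 of 9 (12.4%), the D-box TTATGTAA in 0 of 9 (0.819%), and CCAAT in 7 of 9 (33.8%). In the Aldh1a2 window, the minus-strand ACGTG and CCAAT lie next to each other and share no base.

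Each library summed to between 989211 and 999188 TPM (a level scaled to transcript length and to the library, which can be compared between genes), and the files give no depth in reads. Summed hepatocyte markers reached a median of 82072 TPM in normoxic liver and at most 6071 TPM in a normoxic library of any other tissue. One liver IH library (replicate 2 at 13:30) held 1769 TPM of hepatocyte and 10710 TPM of cardiomyocyte markers, which goes against its label. One cerebellum IH library (replicate 3 at 1:30) held 583 TPM of cerebellar neuron markers, against at least 1732.5 TPM in the others of its group, and 12450 TPM of cardiomyocyte markers. Cardiomyocyte markers also reached 7454 TPM in the others of its group (median 771) and 5464 TPM in normoxic cerebellum (median 1326). The changes, interaction and rhythms of liver and cerebellum were also computed without these 2 libraries. The filter on low values still counted them, so the same genes were tested. The number of genes detected moved with treatment in the lung (22694 ± 737 in normoxia and 25455 ± 1529 after IH, SD, n = 24) and in the heart (25124 ± 1719 and 21447 ± 688). Replicate numbers 1 to 3 recur at every time point, and what they stand for is not given in the sources used here.

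The 10 genes divided the tissues unequally in normoxia. Aldh2 was the most abundant of them in every tissue but the cerebellum, with 52.1% to 71.0% of their summed TPM on average, and Aldh1a1 took 50.1% ± 5.03 in the cerebellum against 25.3% ± 4.18 for Aldh2 (SD, n = 24). The sum was 3619 ± 349 TPM in the liver, 2458 ± 257 in the lung, 1274 ± 222 in the kidney, 597 ± 115 in muscle, 389 ± 69.6 in the cerebellum and 341 ± 73.1 in the heart.

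**Figure D1:**
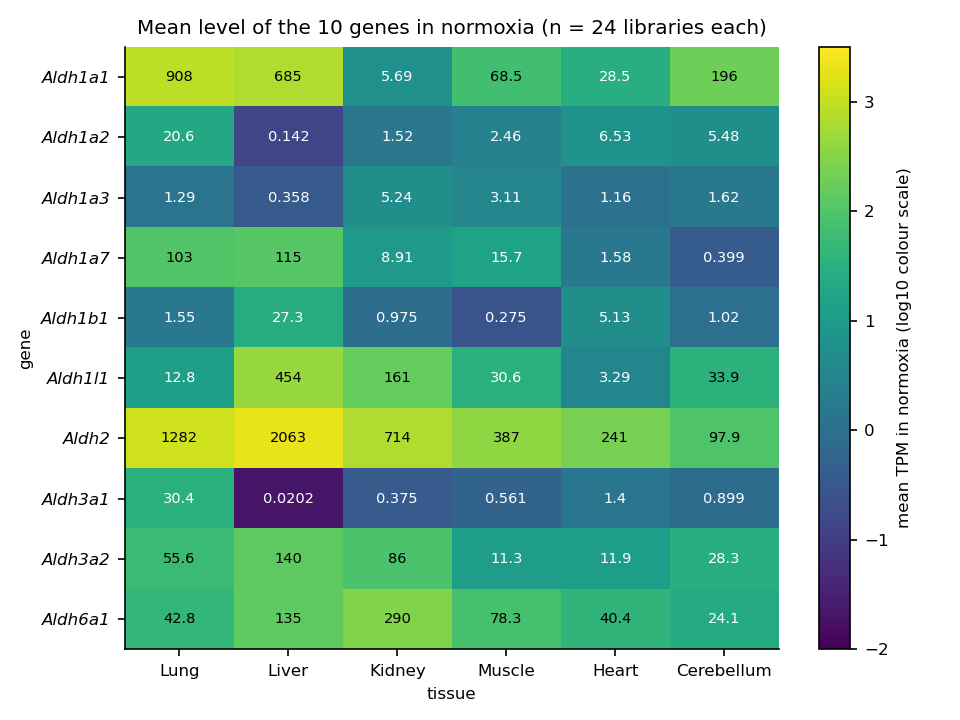
Mean TPM in normoxia of the 10 genes (rows) in 6 tissues (columns), with the mean of 24 libraries printed in each cell and coloured on a log10 scale. Aldh2 reached 2063 TPM in the liver, and Aldh3a1 stood at 30.4 TPM in the lung against at most 1.40 TPM elsewhere.

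Among the retinal-oxidising genes, Aldh1a1 had a mean of 908 ± 132 TPM in lung, 685 ± 146 in liver, 196 ± 41.5 in the cerebellum, 68.5 ± 16.2 in muscle, 28.5 ± 16.5 in the heart and 5.69 ± 1.35 in the kidney. The library ranges of lung and liver overlapped, as did those of muscle and heart, and the other neighbours in this order did not. Aldh1a7 had another order, with 115 ± 21.5 TPM in the liver and 103 ± 13.5 in the lung, whose ranges overlapped, then 15.7 ± 5.41 in muscle, 8.91 ± 1.95 in the kidney, 1.58 ± 1.82 in heart and 0.399 ± 0.276 in cerebellum. The ratio of Aldh1a1 to Aldh1a7 therefore turned over between tissues. It was 8.60 at the median in the lung (7.24 to 11.0 over 24 libraries) and 6.03 in the liver, but 0.623 in the kidney (0.412 to 0.874), where Aldh1a7 was the higher in all 24 normoxic libraries, and 638 in the cerebellum.

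Aldh1a2 was highest in the lung at 20.6 ± 3.29 TPM, a range apart from that of the heart at 6.53 ± 2.10. Heart, cerebellum (5.48 ± 1.63), muscle (2.46 ± 0.847) and kidney (1.52 ± 0.304) overlapped in sequence, and the liver was lowest at 0.142 ± 0.0432. Aldh1a3 was low throughout, from 5.24 ± 1.10 TPM in the kidney to 0.358 ± 0.0848 in the liver, and only the liver range stood apart from its neighbour.

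The mitochondrial genes differed in where they peaked. Aldh2 ran from the liver (2063 ± 202 TPM) over lung (1282 ± 172), kidney (714 ± 140), muscle (387 ± 85.3) and heart (241 ± 47.5) to the cerebellum (97.9 ± 21.7), with overlap between kidney and muscle and between muscle and heart. Aldh1b1 was 27.3 ± 12.3 TPM in the liver, 5.13 ± 1.30 in the heart and at most 1.55 in the other 4 tissues. Aldh6a1 was highest in the kidney at 290.4 ± 49.9 TPM, apart from the liver at 135 ± 26.4, and each later neighbour down to the cerebellum (24.1 ± 4.64) overlapped.

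Aldh1l1, an astrocyte marker in the brain, was at 33.9 ± 9.30 TPM in the cerebellum, far under the liver (454 ± 70.9) and the kidney (161 ± 32.2), which stood apart from each other. Aldh3a1 was at most 1.40 TPM on average outside the lung, and in the liver 5 of 24 normoxic libraries listed it at 0. Aldh3a2 was spread more evenly, from 139.7 ± 23.5 TPM in the liver, 86.0 ± 15.5 in the kidney and 55.6 ± 3.76 in the lung to 11.3 ± 1.72 in muscle.

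The first comparison asked which of these genes changed in mean 24-hour expression after IH. TPM was first brought to a common scale within each tissue (median of ratios) and taken as log2(value + 0.5), and genes averaging 1 TPM or more were fitted with limma. A call needed both a 1.5-fold change and a Benjamini-Hochberg adjusted p of 0.05 over every gene fitted. Outside the lung 42 pairs of gene and tissue could be tested, and 6 were called, all of them lower and all in the liver. Because these are bulk tissues, fewer cells of a type and less RNA per cell cannot be told apart.

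In the liver 6 of 7 tested genes fell, where 3.65% of 11334 genes were called and 2.55% were called lower. The 3 others, Aldh1a2, Aldh1a3 and Aldh3a1, were below the filter. The median log2 change was -0.62 over the 7 genes and -0.01 over all genes tested. The 6 genes sit in different compartments and pathways (cytosol, mitochondria, endoplasmic reticulum and folate metabolism).

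**Figure D2:**
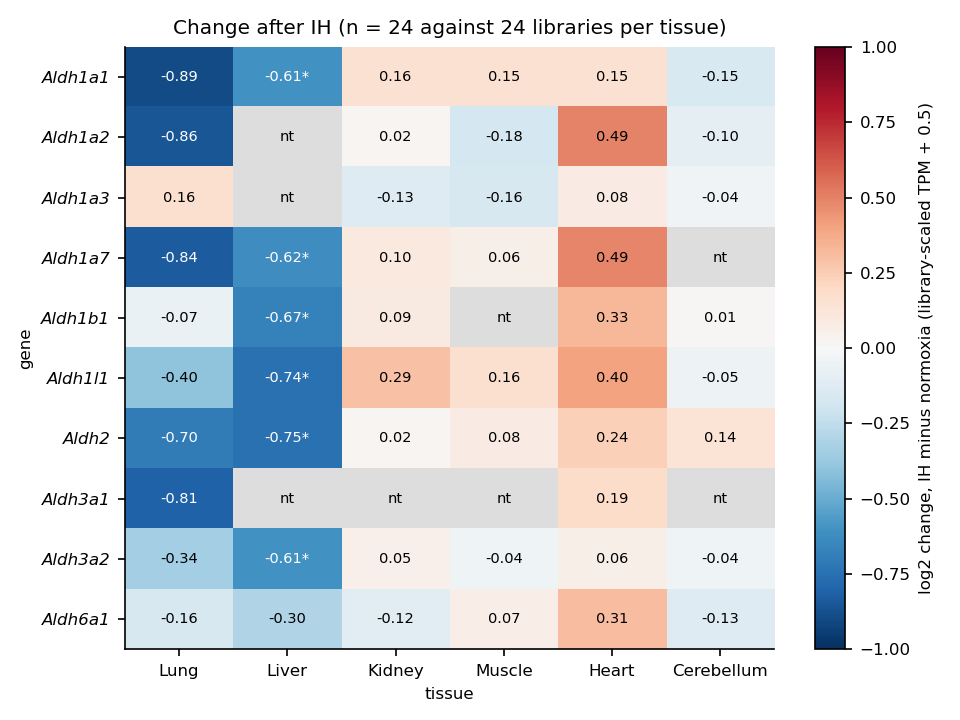
Log2 change, IH minus normoxia, of the 10 genes (rows) in 6 tissues (columns), 24 against 24 libraries each; an asterisk marks pairs outside the lung that passed the adjusted p of 0.05 and 1.5-fold, and nt marks genes not tested. The liver column holds all 6 asterisks, from -0.61 to -0.75; lung values are a description.

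Aldh2, the acetaldehyde enzyme, lay between 1712 and 2506 TPM in normoxic liver (median 2034) and between 148 and 2244 after IH (median 1134). The groups overlapped, but 17 of 24 IH libraries lay below the whole normoxic range, and the mean was lower at 8 of 8 time points. It fell by 0.75 on the log2 scale (SE 0.14, adjusted p 0.000114).

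Aldh1l1, the folate enzyme, ranged from 299.8 to 577 TPM in normoxia (median 464) and from 10.8 to 687 after IH (median 242). The IH group reached beyond normoxia on both sides, with 15 libraries below and 2 above its range. The log2 change was -0.74 (SE 0.21, adjusted p 0.00670).

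Aldh1a1 lay between 334 and 919.9 TPM in normoxia (median 666) and between 21.3 and 926 after IH (median 465). Only 5 IH libraries fell under the normoxic range, and 1 lay above it. The log2 change was -0.61 (SE 0.20, adjusted p 0.0197), and Aldh1a7 gave -0.62 (SE 0.17, adjusted p 0.00551). Aldh1a7 ranged from 78.9 to 156 TPM in normoxia and from 3.84 to 139.8 after IH, with 14 of 24 IH libraries under the normoxic range.

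Aldh1b1, the second acetaldehyde enzyme of mitochondria, had a median of 26.6 TPM in normoxia (11.8 to 78.7) and 13.4 after IH (2.86 to 41.6). Its log2 change was -0.67 (SE 0.17, adjusted p 0.00403). Aldh3a2, for fatty aldehydes, had a median of 138 TPM in normoxia (93.0 to 189.8) and 95.0 after IH (8.41 to 177), a log2 change of -0.61 (SE 0.14, adjusted p 0.00142). Aldh6a1 was not called, at -0.30 (SE 0.14, adjusted p 0.106).

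These falls were carried by replicates 1 and 2. In replicate 3, Aldh2 averaged 1969.6 ± 100.3 TPM in normoxia and 2034 ± 218 after IH (SD, n = 8), whereas replicates 1 and 2 went from 2009.9 ± 248 to 827 ± 237 and from 2209 ± 156 to 1007 ± 395. Of the 7 genes, 7 had a negative log2 change in replicate 1 alone (6 called) and 7 in replicate 2 alone (4 called), but 2 had a negative and 5 a positive one in replicate 3 alone (0 called by limma), with a median of 0.13. Without replicate 1 or without replicate 2 none of the 7 was called, and without replicate 3 the 6 were. Over all 11334 liver genes, 1480, 1034 and 1 were called in replicates 1, 2 and 3 alone. Without replicates 1, 2 and 3 in turn 47, 73 and 1514 were. The dependence on replicate number is thus not particular to these genes, and the adjusted p-values above take no account of it.

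**Figure D3:**
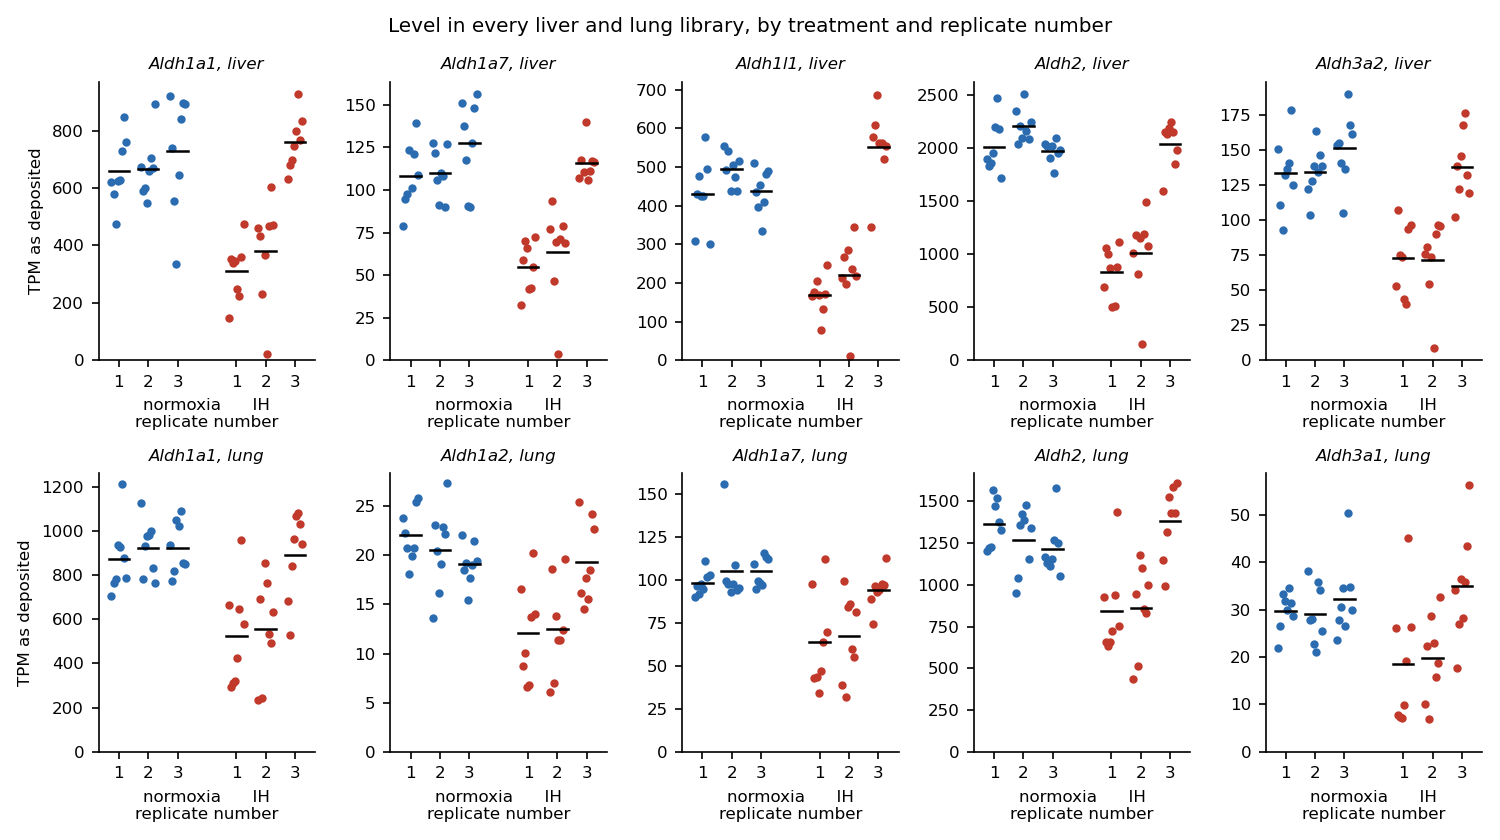
TPM as deposited of 5 genes in every liver (top) and 5 genes in every lung (bottom) library, by treatment (blue normoxia, red IH) and replicate number, 8 libraries each in order of time, with the mean as a black line. In both tissues the means of replicates 1 and 2 after IH lie under those of normoxia, and the replicate 3 libraries after IH overlap the normoxic ones.

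The liver library that stood apart was the lowest of the IH group for each of the 6 fallen genes, at 148 TPM for Aldh2 against 499 in the next lowest. Without the 2 libraries that stood apart, Aldh1b1, Aldh1l1 and Aldh2 were called (log2 changes -0.61, -0.59 and -0.66) and Aldh1a1, Aldh1a7 and Aldh3a2 were not (-0.46, -0.48 and -0.50). On TPM as deposited the median log2 change of all liver genes was -0.12, and the share of called genes that were higher was 11.9% in place of 30.2%.

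Markers of other cell types moved with treatment in the liver. Of 10 hepatocyte markers 3 were called lower, with summed levels of 72782 to 107627 TPM in normoxia (median 82072) and 1769 to 88714 after IH (median 64205). Kidney tubule markers rose in 5 of 5 tested, from a median sum of 4.48 to 94.6 TPM (ranges 1.03 to 127 and 44.8 to 473), cardiomyocyte markers in 8 of 9, from 20.7 to 59.4 TPM (6.77 to 97.3 and 41.1 to 10710), and red blood cell markers in 4 of 5. Without the library that stood apart, these counts were 1 of 10, 5 of 5, 8 of 9 and 3 of 5, and the highest cardiomyocyte sum after IH was 83.7 TPM. The filter of 1 TPM took the mean over both treatments and all liver libraries, in this setting too. Kidney tubule and cardiomyocyte genes could thus pass it through the IH group or the library that stood apart. For such genes the filter itself asked for a higher IH level. The skeletal muscle markers Myh4 and Myh2 were at a median of 0. In replicates 1 and 2 the kidney tubule sum went from 3.24 to 104 and from 4.68 to 97.8 TPM at the median and the cardiomyocyte sum from 20.4 to 64.7 and from 19.7 to 57.7 TPM. In replicate 3 the medians of both sums were lower after IH, at 114 and 82.8 TPM for kidney tubule and 80.8 and 57.6 TPM for cardiomyocyte markers. After IH the hepatocyte sum was 81616.5 TPM in replicate 3 and 56099 and 61083 in replicates 1 and 2. The part of these markers in the falls was not tested.

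In the heart limma called 0 of 10 genes changed, where 2.95% of 12779 genes were. At an unadjusted p of 0.05 there were 6 of 10, where 6645 of all 12779 genes passed. Of the 10, 5 passed the adjusted p alone, all higher, which is near the 45.2% of all genes that did. Aldh1a2, the retinal enzyme, went from 3.81 to 11.0 TPM (median 6.29) in normoxia to 4.92 to 14.0 TPM (median 9.81) after IH, with 10 of 24 IH libraries above the normoxic range. Its log2 change was 0.49 (SE 0.10, adjusted p 0.000111). Aldh6a1, for valine semialdehydes, had a median of 38.1 TPM (20.8 to 58.1) and 56.6 TPM (29.7 to 80.5), again with 10 IH libraries above normoxia, and a log2 change of 0.31 (SE 0.08, adjusted p 0.00279).

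The other 3 were Aldh1l1 at 0.40 (SE 0.15, adjusted p 0.0248), Aldh1b1 at 0.33 (SE 0.09, adjusted p 0.00156) and Aldh2 at 0.24 (SE 0.07, adjusted p 0.00346). All 10 log2 changes in the heart were above 0, with a median of 0.27 against 0.04 over all genes tested. Aldh1a2 passed 1.5-fold on TPM as deposited (0.61) and without replicate 2 (0.62). With a term added for the count of detected genes none of the 5 passed the adjusted p, with Aldh1a2 at 0.02 (adjusted p 0.962), Aldh6a1 at 0.10 (0.730), Aldh1b1 at 0.10 (0.750), Aldh2 at 0.12 (0.587) and Aldh1l1 at 0.61 (0.202). That count was at least 22988 in each normoxic heart library and at most 22793 in each IH one. The term therefore separates the treatments itself, and nothing is read from this setting. Over all 12779 heart genes, 257 passed the adjusted p with it and 5780 without it. On TPM as deposited the median over all heart genes was 0.15, and the share of called genes that were higher was 66.8% in place of 37.4%. Beside these genes, smooth muscle and mesothelial markers rose in 2 of 8 each, and endothelial and fibroblast markers, with 0 of 8 called each, had median log2 changes of 0.44 and 0.33. Their part in the cardiac values was not tested.

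In the kidney limma called 0 of 9 tested genes changed, where 0.783% of 12902 genes were. Aldh1l1 alone passed the adjusted p, as did 19.8% of all genes. It had a median of 153 TPM in normoxia (110.5 to 216) and 197 after IH (104 to 384), with 9 IH libraries above the normoxic range. Its log2 change was 0.29 (SE 0.09, adjusted p 0.0236), with -0.03 in replicate 2 alone and 0.67 in replicate 3 alone. Red blood cell markers were called higher in 5 of 6 in the kidney (median sums 4189.97 and 6568 TPM), and their part in the Aldh1l1 value was not tested.

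In muscle 0 of 8 and in the cerebellum 0 of 8 were called by limma, where 0.374% and 2.64% of genes were called. At an unadjusted p of 0.05 there was 1 in muscle, Aldh1a3 at -0.16 (SE 0.07, adjusted p 0.155), and 0 in the cerebellum. Over all genes 3063 of 12824 in muscle and 4514 of 14892 in the cerebellum passed it. The members' log2 changes stayed between -0.18 and 0.16 in muscle and between -0.15 and 0.14 in the cerebellum. Without the cerebellum library that stood apart, Aldh6a1 was at -0.18 (SE 0.05, adjusted p 0.00616), under 1.5-fold, and the others lay between -0.11 and 0.10. With that library its adjusted p was 0.185.

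Whether the IH change differed among these 5 tissues was tested with an interaction term, which treats the tissues as separate animals. The paper describes several organs taken from 3 mice per time point and condition, so libraries of different tissues share mice. The p-values of this test take no account of that. The interaction was called for 8 of 9 genes, where 61.3% of 14930 genes were called. Aldh2 gave the lowest adjusted p (6.35e-11, limma), with -0.75 in the liver and 0.02 to 0.24 in the 4 other tissues, and Aldh1a3 was not called (adjusted p 0.184). Aldh3a1 was below the filter. Among the 4 tissues without the liver, a setting chosen after the data had been seen, 2 of 9 were called, Aldh1a2 and Aldh6a1, where 51.6% of 14932 genes were. Without the 2 libraries that stood apart, also a setting chosen after the data had been seen, 8 of 9 were called, where 68.7% of genes were.

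The lung values chose these genes and are described without p-values. The limma thresholds used elsewhere, adjusted p included, only sort the genes here and are not used as a test. Of the 10 genes 5 lay past the thresholds used elsewhere, all lower, where 13.5% of 15426 genes did in either direction and 4.39% were lower. Since these values chose the genes, nothing is read from that count. Aldh1a1 had a median of 902 TPM in normoxia (705 to 1214) and 656 after IH (236 to 1081). The groups overlapped, and 15 of 24 IH libraries lay under the normoxic range. Its log2 change was -0.89 (SE 0.15), and its mean was lower at 8 of 8 time points.

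Aldh1a2 went from a median of 20.6 TPM (13.6 to 27.3) to 14.3 TPM (6.07 to 25.4), a log2 change of -0.86 (SE 0.12). Aldh1a7 went from 98.0 TPM (90.1 to 156) to 83.0 TPM (32.1 to 113), a change of -0.84 (SE 0.13). Aldh3a1, the epithelial enzyme, went from 29.9 TPM (21.1 to 50.3) to 24.6 TPM (6.99 to 56.4), a change of -0.81 (SE 0.19). Aldh2 went from 1260.1 TPM (954 to 1580.3) to 968 TPM (439 to 1612), a change of -0.70 (SE 0.12), and every one of these 5 overlapped between treatments.

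The other 5 lung values were smaller, at -0.40 for Aldh1l1, -0.34 for Aldh3a2, -0.16 for Aldh6a1, -0.07 for Aldh1b1 and 0.16 for Aldh1a3. As in the liver, replicate 3 differed from the rest: Aldh1a1 averaged 924 ± 118 TPM in normoxia and 892 ± 197 after IH there, against 874 ± 160 and 525 ± 232 in replicate 1 and 925 ± 124 and 556 ± 227 in replicate 2 (SD, n = 8). On the scaled values its log2 change was -0.40 in replicate 3 alone, against -1.05 and -1.23 in replicates 1 and 2.

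The size of the lung changes depended on the scaling. Scaling moved the median log2 change of all lung genes from 0.21 on TPM as deposited to -0.08, and the share of called genes that were higher from 98.0% to 67.4%. On TPM as deposited Aldh1a1 was at -0.59, Aldh1a2 at -0.57, Aldh1a7 at -0.53, Aldh3a1 at -0.52 and Aldh2 at -0.39, while Aldh1b1 and Aldh6a1 turned to 0.16 and 0.14. With a term added for the count of detected genes Aldh1a1 was at -0.01, Aldh1a2 at -0.05, Aldh1a7 at -0.16, Aldh2 at 0.085, Aldh3a1 at 0.19 and Aldh1b1 at 0.68. That count ran from 21746 to 25400 in normoxia and from 23622 to 28284 after IH, so the term itself went with treatment. The number of genes detected was higher after IH in the replicates that had the lower Aldh1a1, with a median of 26470.5 and 25529.5 in replicates 1 and 2 and 24122 in replicate 3.

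Lung cell markers moved with these genes, again given as a description without p-values and by the same limma thresholds. Club cell markers were lower past the thresholds in 6 of 8, with a median sum of 131884 TPM in normoxia (105650 to 245195) and 107895 after IH (23135 to 166311), and alveolar type 2 markers in 5 of 8 (54380 to 47716 TPM at the median). Endothelial and mesothelial markers were lower in 4 of 8 each, alveolar type 1 and ciliated cell markers in 3 of 8 each, red blood cell markers in 4 of 6, and smooth muscle, fibroblast and leukocyte markers in 1 of 8 each. Cardiomyocyte markers were higher in 4 of 9, from a median sum of 412 to 761 TPM. In replicate 3 after IH the club cell sum was 143270 TPM at the median, against 62074 and 81223 in replicates 1 and 2. The part of these cells in the lung values was not tested.

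After subtraction of the means of each treatment and time point, the genes most like Aldh1a1 over the 48 lung libraries were Aldh1a7 (r = 0.980), Cldn3 (0.978), Scgb1a1 (0.978), the secretory protein of club cells, Cckar (0.977) and Epcam (0.975). These genes share libraries and the scaling of each library. Of the other members, Aldh3a1 reached an r of 0.956, Aldh2 0.912, Aldh3a2 0.911, Aldh1a2 0.855, Aldh1b1 0.830, Aldh6a1 0.767 and Aldh1l1 0.718, and Aldh1a3 stood at -0.03.

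Rhythm over 24 hours was tested in each tissue and treatment by cosine and sine terms in limma, for genes that reached 1 TPM in a library. What hour 0 of the labels means is not given in the sources used here. By label time, the clock gene Arntl peaked between 21.7 and 0.352 hours and Dbp, a clock output, between 8.09 and 10.6 hours in the 5 tissues outside the cerebellum, over both treatments. In normoxia 9 of 56 pairs of gene and tissue were called rhythmic, and after IH 2 of 56 (21 and 8 at an unadjusted p of 0.05). Over all genes in normoxia, from 929 of 15770 in the heart to 5250 of 14706 in the kidney passed that unadjusted p. After IH it was from 727 of 21372 in the cerebellum to 3413 of 15181 in muscle.

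In the normoxic kidney 3 of 9 genes were called, where 18.6% of all genes were. The normoxic liver had 2 of 8 (14.4% of all genes), the lung 3 of 10 (6.8%) and muscle 1 of 9 (5.38%). Normoxic heart and cerebellum had 0 of 10 each, where 0.558% and 0% of all genes were called (4 and 2 members at an unadjusted p of 0.05). That unadjusted p was passed by 929 of 15770 and 4681 of 21372 genes. After IH the heart had 1 of 10 (3.45% of all genes) and the kidney 1 of 9 (5.38%). The IH liver had 0 of 8 (2.33%), lung 0 of 10 (3.37%), muscle 0 of 9 (7.43%) and cerebellum 0 of 10 (0.00936%) by limma, with 0, 1, 1 and 1 at an unadjusted p of 0.05. Over all genes 1596 of 14482, 2904 of 20106, 3413 of 15181 and 727 of 21372 passed it. Without the 2 libraries that stood apart the counts remained at 9 and 2.

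Aldh1a1 in the kidney was the one pair called in both treatments. Its mean rose from 4.07 ± 0.553 TPM at 7:30 to 7.16 ± 1.22 at 16:30 in normoxia (SD, n = 3), with an amplitude of 0.34 on the log2 scale and a peak at 17.4 hours (adjusted p 0.00229). After IH the amplitude was 0.40 and the peak at 17.6 hours (adjusted p 0.0233), a call kept under 5 of 11 alternatives. In the heart Aldh1a1 had an amplitude of 0.42 in normoxia (peak 16.0 hours, adjusted p 0.322) and of 0.41 after IH (peak 14.2 hours, adjusted p 0.000992). The normoxic heart libraries were more scattered, up to 92.8 TPM in one at 19:30 against a group median of 24.0. Summed lung club cell markers reached 4038 TPM among the normoxic heart libraries (median 2.79) and 1179 TPM among those after IH (median 2.99). Their part in the Aldh1a1 values of the heart was not tested. In normoxic liver Aldh1a1 peaked at 21.2 hours with an amplitude of 0.37 (adjusted p 0.00486), running from 502 ± 151 TPM at 10:30 to 850 ± 77.0 at 22:30. After IH the liver amplitude was 0.23 (adjusted p 0.959).

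**Figure D4:**
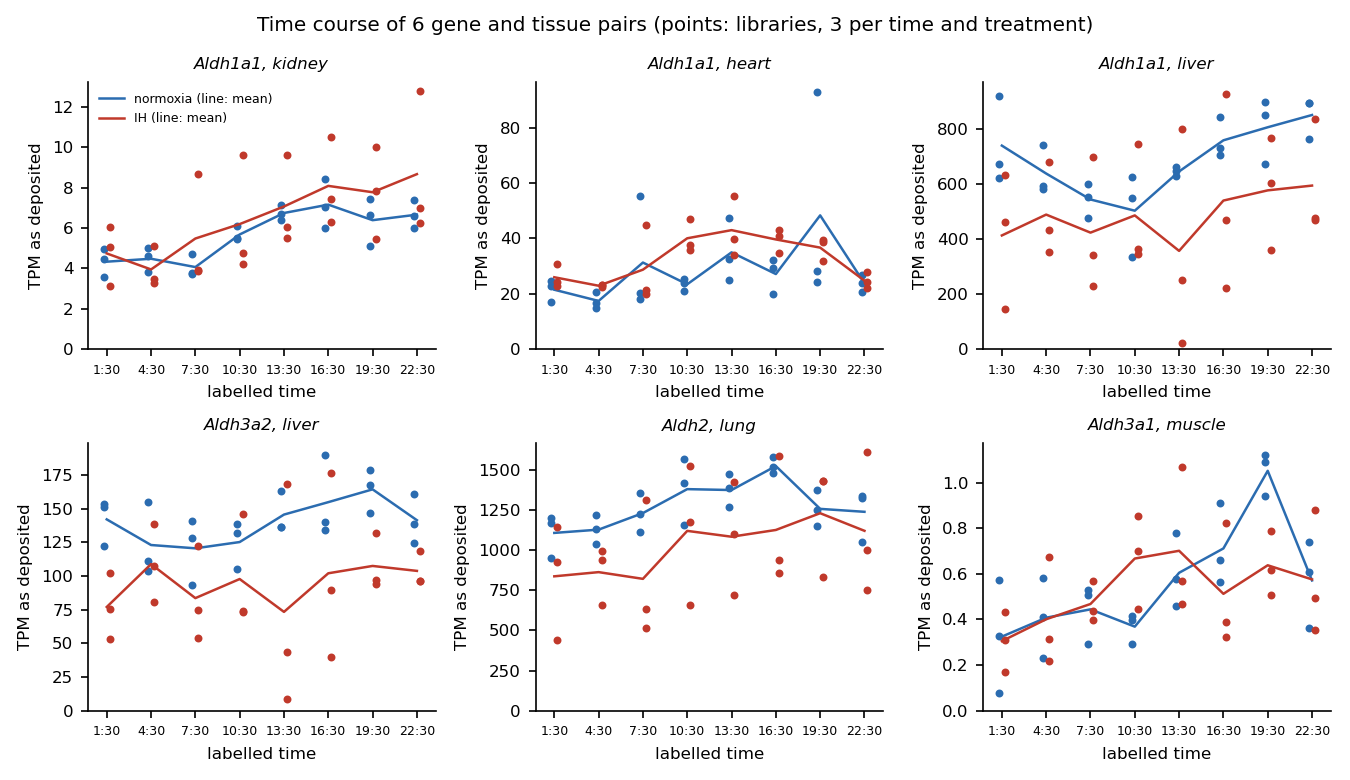
TPM as deposited by labelled time for 6 pairs of gene and tissue, with each library as a point (blue normoxia, red IH, 3 per time and treatment) and the mean as a line. Aldh1a1 in the kidney is highest from 13:30 to 22:30 in both treatments, and one normoxic heart library at 19:30 reaches 92.8 TPM.

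The other rhythmic pairs had smaller amplitudes. In the normoxic lung Aldh2 peaked at 14.8 hours (amplitude 0.18, adjusted p 0.00319), Aldh1a3 at 13.9 hours (0.26, adjusted p 0.0173) and Aldh1a2 at 22.1 hours (0.18, adjusted p 0.0140). In the normoxic kidney Aldh1b1 peaked at 4.96 hours (0.18, adjusted p 0.0205) and Aldh1a3 at 0.599 hours (0.22, adjusted p 0.0407). In normoxic liver Aldh3a2 peaked at 19.2 hours (0.21, adjusted p 0.0351), a call kept under 4 of 11 alternatives and lost without any 1 replicate number. In normoxic muscle Aldh3a1, at a mean of only 0.561 TPM, peaked at 17.9 hours (0.33, adjusted p 0.0281).

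A call in one treatment and not in the other does not show a difference of rhythm. Tested directly with limma outside the lung, the rhythm differed between treatments for 0 of 46 pairs (2 at an unadjusted p of 0.05, Aldh1a3 in the kidney and Aldh2 in muscle), and for 0% of all genes in each of liver, kidney, muscle, heart and cerebellum. The rank test called 5 pairs in normoxia and 0 after IH, and with time point as a factor of 8 levels 1 and 0 were called. In normoxia calls over all genes also fell in every tissue but the cerebellum, which had 0 throughout. The normoxic kidney went from 2729 to 1626 by the rank test and 580 with the factor. After IH the kidney went from 791 to 542 and 226, and the heart from 544 to 272 and 125.

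Genes of 6 lists of surrounding pathways were also tested outside the lung. Among all genes, from 0.374% in muscle to 3.65% in the liver were called. At an unadjusted p of 0.05 in limma, from 3063 of 12824 genes in muscle to 6645 of 12779 in the heart passed. The counts of the lists stand beside these shares, and nothing further is read from them. Of 11 other aldehyde dehydrogenases, 0 of 40 tested pairs were called by limma (14 at an unadjusted p of 0.05), with a median log2 change in the liver of -0.27. Of 6 alcohol dehydrogenases, which make the aldehydes that these enzymes oxidise, 0 of 15 pairs were called (1 unadjusted), and of 17 measured genes of valine and propionate breakdown 0 of 82 (32 unadjusted). In kidney, muscle and heart 0 of 202 pairs of all 6 lists were called (64 unadjusted).

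In the liver, 1 of 23 tested genes of retinoid metabolism fell, Rdh11, a retinal reductase, from 20.1 ± 7.55 to 12.2 ± 7.05 TPM (log2 change -0.76, SE 0.18, adjusted p 0.00177). Of 17 folate genes 1 fell, Mthfd1, which makes the substrate of Aldh1l1, from 77.5 ± 11.2 to 50.2 ± 29.2 TPM (-0.76, SE 0.16, adjusted p 0.000385). Of 9 genes of fatty aldehyde formation and use 2 fell, Cyp4a10, a fatty acid hydroxylase (-0.79, SE 0.29, adjusted p 0.0359), and Agmo, which frees fatty aldehydes from ether lipids (-0.64, SE 0.14, adjusted p 0.00112). The median changes of these 3 lists were -0.03, -0.08 and -0.49, against -0.01 over all liver genes. Without the liver library that stood apart Rdh11, Mthfd1 and Cyp4a10 were called (-0.68, -0.67 and -0.64) and Agmo was not (-0.53). In the cerebellum Agmo fell (-0.62, SE 0.14, adjusted p 0.00155) and Rxrb, a retinoid X receptor, rose (0.71, SE 0.11, adjusted p 2.05e-05), and both were called without the cerebellum library that stood apart (-0.61 and 0.75).

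In the lung, again as a description, 2 of 10 tested other aldehyde dehydrogenases lay past the thresholds, both higher: Aldh1l2, the mitochondrial counterpart of Aldh1l1, from 0.657 ± 0.209 to 2.58 ± 1.47 TPM (log2 change 1.11), and Aldh3b3 from 0.652 ± 0.199 to 2.05 ± 0.783 TPM (0.91). In both genes the lowest IH library (1.16 and 1.28 TPM) lay above the highest normoxic one (1.10 and 1.06 TPM). Both averaged under 1 TPM in normoxia and passed the filter through the IH group, so the filter itself asked for a higher IH level. Of the retinoid list 1 of 20 was higher, Rdh5 (0.74), and 1 lower, Dhrs7 (-0.63). Of the folate list Amt was higher (0.64), and Mthfd1 (-0.67) and Atic (-0.59) were lower, of 18 tested. Of the fatty aldehyde list Far2 was higher (0.68) and Hsd17b12 lower (-0.59), of 7. Far2 too averaged under 1 TPM in normoxia (0.576 ± 0.183) and passed the filter through the IH group (1.59 ± 0.806). The same limit therefore holds for it. Of the alcohol dehydrogenase and valine lists 0 of 3 and 0 of 16 passed.

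Over the 48 means of tissue and time point in normoxia, the gene most like each member was Ntn3 for Aldh1a1 (r = 0.976), Cers4 for Aldh1a2 (0.987), Entpd4b for Aldh1a3 (0.966), Tspan12 for Aldh1a7 (0.959), Hamp for Aldh1b1 (0.966), Pex5 for Aldh1l1 (0.976), Man2a1 for Aldh2 (0.979), Ptgs2 for Aldh3a1 (0.990), Notum for Aldh3a2 (0.989) and Mmut for Aldh6a1 (0.984). The next were Npc1 and Pid1, Tmsb4x and Sipa1l2, Ppp1r1a and Tln2, H2-K1 and Erap1, Adra1b and Dsc2, Slc6a13 and Glud1, Tspan12 and Rab32, Emp2 and Rgs12, Sdc2 and Zdhhc9, and Cmbl and Dbt, in the same order of members. The 48 points hold 8 from each of the 6 tissues, which are not independent. Mmut and Dbt, like Aldh6a1, act in the breakdown of branched-chain amino acids.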

How the data were processed

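The authors quantified reads with Kallisto against an Ensembl mouse release (mm10). What the authors deposited are TPM per gene, in 12 tables of 35904 genes; how transcripts were joined into genes is not given in the sources used here. The submitters' processing notes also name bcl2fastq, FastQC 0.11.3 and DESeq2; the authors ran DESeq2 on estimated counts, which are not analysed here. With TPM only, the depth per library and its counting error are unknown.

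TPM was scaled per library within a tissue by the median of ratios, taken as log2 with a pseudocount of 0.5, and fitted with limma 3.58.1 in R 4.3.3, treatment being the only term for mean 24-hour expression. Rhythm was fitted with 24-hour cosine and sine terms, its difference between treatments with their interaction, and tissues by a tissue by treatment interaction. Tests were 2-sided, adjusted over all genes tested, and scripts were tested on simulated data. Within a tissue the p-values measure the spread between libraries of separate mice. They take no account of the replicate number, although liver Aldh2 after IH averaged 827, 1007 and 2034 TPM in replicates 1, 2 and 3. If the numbers mark sets of mice, these p-values could be too small. The interaction over tissues has no term for the mouse, so its p-values take no account of mice shared between tissues. Levels printed are TPM as deposited, log2 changes are on the scaled values. Descriptions used Python 3.11.15, pandas 2.3.3 and scipy 1.17.1, with annotation and transcripts of GENCODE release 21 and promoters of RefSeq.

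The members, gene lists, marker lists and tests were chosen with earlier results of these data known. Named were all 10 members, in each tissue and list up to 3 called genes of the largest change, the 3 genes most like each member and the 5 most like Aldh1a1 in the lung, and Arntl and Dbp to place the times. Alternatives were other pseudocounts, filters and scaling, terms for time point, replicate block and genes detected, other rhythm tests, and fewer libraries.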

Additional observations from a re-analysis of the deposited data

Results flagged for a closer look

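For 8 genes the IH change differed among liver, kidney, muscle, heart and cerebellum by the interaction term of limma. Its p-values take no account of mice shared between tissues. The adjusted p was 6.35e-11 for Aldh2, 1.57e-07 for Aldh3a2, 4.22e-07 for Aldh1l1, 3.03e-06 for Aldh1b1, 0.000181 for Aldh6a1, 0.00034 for Aldh1a1, 0.000672 for Aldh1a2 and 0.00138 for Aldh1a7. Of all genes tested 61.3% were called by the same term. Aldh6a1 was at -0.30 in the liver and 0.31 in the heart, with -0.13 to 0.07 in the other 3 tissues. Aldh1a2 was at 0.49 in the heart and between -0.18 and 0.02 in kidney, muscle and cerebellum. Its test also took in the liver, with a mean of 0.142 TPM in normoxia and up to 4.21 TPM in the IH library that stood apart. Its adjusted p was 3.68e-05 without the liver and 3.65e-06 without the 2 libraries that stood apart, both settings chosen after the data had been seen. The other 6 genes were each between -0.61 and -0.75 in the liver, and their heart values ran from 0.06 to 0.49.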

How the results depend on the processing

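Outside the lung 6 pairs were called, all in the liver. The count was 5 to 7 under other pseudocounts, filters, scaling and terms, 0 to 6 when 1 replicate number was left out, 8, 4 and 1 with replicate 1, 2 or 3 alone, and 3 without the 2 libraries that stood apart. In replicate 3 alone the liver changes of Aldh1a1, Aldh1b1, Aldh1l1 and Aldh2 turned to 0.21, 0.14, 0.41 and 0.13. In the lung, given as a description since these values chose the genes, 5 lay past the thresholds, 1 on TPM as deposited (Aldh1a1), 1 with a term for the count of detected genes (Aldh1b1, which turned to 0.68, while Aldh2 and Aldh3a1 turned to 0.085 and 0.19), 0 in replicate 3 alone, and 4 to 6 when 1 replicate number was left out. Over all 11334 liver genes 1480, 1034 and 1 were called with replicate 1, 2 or 3 alone. Of all 15426 lung genes 2966 lay past the thresholds on TPM as deposited. With the term for detected genes 1686 did, and in replicate 3 alone 1987. The cause of these differences was not tested.

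Rhythmic pairs in normoxia numbered 9, and 4 on TPM as deposited, 1 with time point as a factor, 5 by the rank test, 6 without a filter, and 2 to 5 when 1 replicate number was left out. Calls over all genes of the normoxic kidney went from 2729 to 1206 on TPM as deposited and 1853 without a filter. They were 656 to 1328 there when 1 replicate number was left out. After IH the rhythmic pairs numbered 2, and 1 without a filter, 1 on TPM as deposited, 0 with time point as a factor, 0 by the rank test and 0 to 2 when 1 replicate number was left out. Aldh1a1 in normoxic kidney kept its call under 10 of 11 alternatives (not without replicate 1, adjusted p 0.158), and Aldh1a1 in the kidney after IH under 5. Of the other calls, those of Aldh2 in the lung and Aldh1a1 in the liver were kept under 9, of Aldh1a1 in the heart after IH under 8, of Aldh1a2 and Aldh1a3 in the lung under 7, of Aldh1b1 in the kidney and Aldh3a1 in muscle under 6, of Aldh1a3 in the kidney under 5 and of Aldh3a2 in the liver under 4. The interaction count of 8 was 4 to 8 when 1 replicate number was left out, 2 without the liver and 8 without the 2 libraries that stood apart. Differences of rhythm remained at 0 under all alternatives run. Samples with the same replicate number deviated together (r over 0.1) in 16 of 24 pairs in the liver and in 5 to 12 of 24 in the other tissues. In the liver the median r was 0.22 for the same number and -0.12 for other numbers. Since not every pair passed 0.1 and the labels do not say what the numbers stand for, they were not treated as pairs in the main tests. With the replicate block 6 pairs outside the lung, 5 genes in the lung, 9 and 2 rhythmic pairs and 8 interaction genes were called. These counts equal those of the main fits. For mean expression and the interaction, the block joined IH and normoxia libraries of the same tissue, time and replicate number. There it removes only shifts shared by both treatments. It cannot take up an IH change that differs between replicate numbers, such as that in liver and lung.

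Without read counts, precision at low TPM is unknown, which bears most on Aldh1a3, on Aldh3a1 outside the lung and on Aldh1a7 in heart and cerebellum.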
